A study of Mus musculus with 12 samples.

Results

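The genes described here carry out mitochondrial fatty acid oxidation: the carnitine shuttle genes Cpt1a, Slc25a20 and Cpt2, and the beta-oxidation genes Acadvl, Acadl, Acadm, Acads, Hadha, Hadh and Acaa2. These 10 genes were taken by name from a list that was chosen with earlier results of these data known. They are among 22180 genes that could be named on the arrays, and each was measured by 1 probe set. Gene expression was measured in mouse primary macrophages on 12 single-colour whole-transcript arrays, with 3 arrays in each of 4 groups. KO TAMs were CD36 KO macrophages that had been cultured for 72 h with 5TGM1, a mouse multiple myeloma cell line, to make tumour-associated macrophages (TAMs). KO MΦs were CD36 KO macrophages without the co-culture. WT TAMs were wild-type macrophages after the same 72 h with 5TGM1 cells, and WT MΦs were wild-type macrophages without it. Cd36 encodes a scavenger receptor of the cell surface known for the uptake of fatty acids with long chains and of oxidised lipoprotein. Whether the knockout was limited to a cell type, how 5TGM1 cells were removed, the age of the mice, the time MΦs spent in culture and the animal or culture behind each replicate are not stated in the labels, so p-values measure only the spread between these arrays, which may be technical.

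Long-chain fatty acids enter the mitochondrial matrix as carnitine esters. Cpt1a, in the outer membrane, makes the ester and is the rate-limiting step that malonyl-CoA inhibits, Slc25a20 carries it across the inner membrane in exchange for carnitine, and Cpt2 turns it back into an acyl-CoA. In each round of beta-oxidation an acyl-CoA dehydrogenase chosen by chain length, a hydratase, a hydroxyacyl-CoA dehydrogenase and a thiolase then shorten the chain and release acetyl-CoA. In macrophages this pathway is known for its rise during alternative activation, and PPAR and PGC-1 factors are known regulators of its genes.

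Levels are log2 intensities, and a gene is called higher or lower where limma, a linear model fitted to all genes, gave an adjusted p under 0.05. Cd36 read 8.45 to 9.66 log2 units on KO TAM arrays, 8.63 to 8.79 on KO MΦ arrays, 12.14 to 12.53 on WT TAM arrays and 12.1 to 12.15 on WT MΦ arrays, and was called lower in KO TAMs (-3.41, limma adjusted p = 2.45e-05) and in KO MΦs (-3.39, adjusted p = 2.05e-05). The labelled cell type was met by its defining markers, with Adgre1 at 12.16 to 12.83 and Cd68 at 12.05 to 13.07 over the 12 arrays. The 8 macrophage markers also moved between groups. Their summed intensities were 36300 to 38597 on KO TAM arrays, 29994 to 30283 on KO MΦ arrays, 34044 to 34336 on WT TAM arrays and 33782 to 34878 on WT MΦ arrays. In KO TAMs 4 of the 8 were called higher than in KO MΦs (Fcgr1 by 1.4, Csf1r by 0.84, Cd68 by 0.83 and Mertk by 0.75) and 1 lower, with a median difference of 0.51. In WT TAMs 2 of the 8 were called higher and 2 lower than in WT MΦs, in KO MΦs 1 higher and 1 lower than in WT MΦs, and in KO TAMs 1 higher and 0 lower than in WT TAMs. The part of these markers in the results on the 10 genes was not tested.

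Of the 13 plasma cell and myeloma markers measured, Jchain (3.28 to 3.84) and Tnfrsf17 (3.35 to 4.09) lay at the level that the Y-linked genes had on WT arrays (3.05 to 4.1), while others were high. Slamf7 was at 11.78 to 12.56 and Xbp1 at 9.66 to 10.21. Ighm, the heavy chain of IgM, was at 6.57, 10.25 and 9.44 on KO TAM arrays, 11.61 to 11.68 on KO MΦ arrays, 5.3 to 6.25 on WT TAM arrays and 9.53 to 9.75 on WT MΦ arrays. Summed over the 13, intensities were 6591 to 7993 on KO TAM arrays, 8997 to 9192 on KO MΦ arrays, 5519 to 5695 on WT TAM arrays and 6063 to 6228 on WT MΦ arrays. Of the 13, 2 were called lower in KO TAMs than in KO MΦs and 3 lower in WT TAMs than in WT MΦs. In KO MΦs 2 were called lower than in WT MΦs, and in KO TAMs 2 higher than in WT TAMs. Summed intensities of the 7 B cell markers measured were 322 to 881 on KO TAM arrays and 770 to 825 on KO MΦ arrays. They were 248 to 365 on WT TAM arrays and 393 to 434 on WT MΦ arrays. In these groups Cd79b read 6.13 to 8.3, 9.04 to 9.16, 5.77 to 6.51 and 7.77 to 7.96. Cd22 read 7.41 to 8.99, 7.28 to 7.4, 6.81 to 7.56 and 6.35 to 6.75. Limma called 2 higher in KO TAMs than in WT TAMs, 1 lower in WT TAMs than in WT MΦs and 0 elsewhere. The part of these lists in the results was not tested.

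Xist was at 3.91 to 4.35 on KO arrays and 11.08 to 11.32 on WT arrays. The 3 Y-linked genes measured were at 7.97 to 9.99 on KO arrays and 3.05 to 4.1 on WT arrays. They were called higher in KO TAMs and in KO MΦs. KO arrays thus read as male and WT arrays as female, so genotype and sex cannot be told apart for any gene, sex-linked or not. The 14 fibroblast and stromal markers had summed intensities of 981 to 3015 on KO TAM arrays, 696 to 733 on KO MΦ arrays, 5120 to 12357 on WT TAM arrays and 3036 to 3554 on WT MΦ arrays. Of the 14, 7 were called lower in KO MΦs than in WT MΦs and 9 lower in KO TAMs than in WT TAMs, while 3 were called higher in KO TAMs than in KO MΦs and 2 higher in WT TAMs than in WT MΦs. These stromal markers thus moved with several of the results on the 10 genes. In bulk samples, fewer cells of a type and less RNA per cell cannot be told apart.

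Of the 10 genes, 4 were lower in KO MΦs than in WT MΦs (Cpt1a, Slc25a20, Cpt2 and Acads) and 0 were higher, where limma called 11.3% of all genes, 6.13% lower and 5.19% higher. The 10 genes' median difference was -0.35, against 0.04 over all genes. Without overlap between the groups 8 of the 10 lay lower and 0 higher, against 17.7% lower and 20.8% higher of all genes. With the mean of the stromal markers as a covariate, a fit chosen after seeing the data, 1 of the 10, Cpt1a, was called. That fit called 324 of all 22180 genes, against 2512 without the covariate. The stromal mean varied little within the MΦ groups, at 5.44 to 5.5 in KO and 6.94 to 7.07 in WT. Its slope in the fit thus rests mainly on the TAM arrays, and the fit can hardly separate it from genotype in MΦs. A limma fit of the MΦ arrays alone called 6 of the 10 (Cpt1a, Cpt2, Slc25a20, Acadl, Acads and Acaa2), and 4716 of all genes. The same 6 were called with array weights, with only genes above the median level, and without both WT TAM 2 and KO TAM 1.

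In KO TAMs 2 of the 10 were lower than in WT TAMs (Cpt1a and Hadh) and 0 were higher, where limma called 12.2% of all genes, 7.19% lower and 5.03% higher. The median difference was -0.22, against 0.02 over all genes, and 3 of the 10 lay lower and 0 higher without overlap, against 11.8% lower and 12.8% higher of all genes. A limma fit of the TAM arrays alone called 0 of the 10, where it called 638 of all 22180 genes. The fit with the stromal covariate also called 0 of the 10, and 629 of all genes. The fit of all arrays had called 2710. The 5 genes with an unadjusted p under 0.05 in the fit of all arrays were Cpt1a, Hadh, Acads, Acaa2 and Acadl. Of all genes, 5570 had such a p.

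In KO TAMs 2 of the 10 were higher than in KO MΦs (Cpt1a and Acaa2) and 0 were lower, where limma called 6.53% of all genes, 2.9% higher and 3.63% lower. The median difference was 0.25, against -0.01 over all genes, and 5 of the 10 lay higher and 0 lower without overlap, against 11.7% higher and 14.6% lower of all genes. In WT TAMs 3 were higher than in WT MΦs (Cpt1a, Hadh and Acaa2) and 0 were lower, where limma called 11.5% of all genes, 5.89% higher and 5.66% lower. The median difference was -0.05, against 0.01 over all genes, and 3 of the 10 lay higher and 3 lower without overlap, against 15.5% higher and 14.6% lower of all genes. With the stromal covariate the count was 1 in each genotype, Cpt1a in KO cells and Hadh in WT cells. That fit called 237 of all 22180 genes in KO cells and 1265 in WT cells, against 1449 and 2561 without the covariate. For the difference between the genotypes' co-culture differences limma called 0 of the 10, where it called 0.194% of all genes. In that contrast 4 of the 10 had an unadjusted limma p under 0.05, as did 2130 of all 22180 genes. Limma with array weights called 3 of the 10 (Cpt1a, Slc25a20 and Hadh), where it called 761 of all genes. Every group enters several comparisons, so these counts are not independent. The 10 genes were chosen with earlier results known, so the shares over all genes stand beside these counts as description, not as a test. The median SD of the 10 genes was 0.141 in KO TAMs, 0.0538 in KO MΦs, 0.122 in WT TAMs and 0.0598 in WT MΦs.

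**Figure D1:**
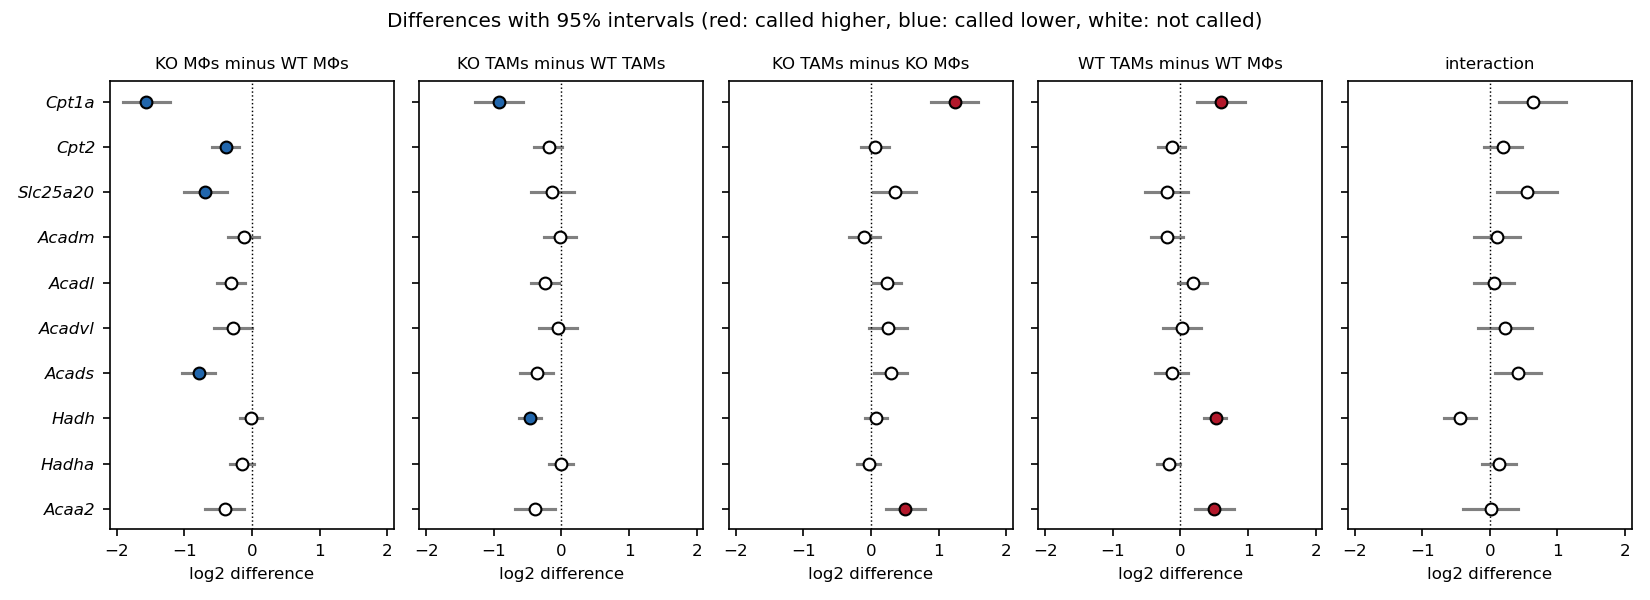
Log2 difference (horizontal axis) with its 95% interval for each of the 10 genes in the 4 comparisons and in their interaction, (KO TAMs minus KO MΦs) minus (WT TAMs minus WT MΦs); blue points were called lower, red points higher and white points not called. Cpt1a was called in all 4 comparisons, and all 10 points lie below 0 in KO MΦs minus WT MΦs.

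The 4 genes that were lower in KO MΦs than in WT MΦs (Cpt1a, Slc25a20, Cpt2 and Acads) are given here with the sequence around their RefSeq starts, because they are the members that moved together in the comparison with the most calls among the 10 genes. Windows are from the RefSeq table of assembly GRCm38.p6, read 5′ to 3′ on the gene's strand, with 250 bases before the start and 50 from it on. Capitals mark the nuclear receptor half-site AGGTCA and the GC box GGGCGG, searched on both strands, so that TGACCT and CCGCCC are the same motifs on the other strand.
Cpt1a (chr19:3323051-3323350, + strand): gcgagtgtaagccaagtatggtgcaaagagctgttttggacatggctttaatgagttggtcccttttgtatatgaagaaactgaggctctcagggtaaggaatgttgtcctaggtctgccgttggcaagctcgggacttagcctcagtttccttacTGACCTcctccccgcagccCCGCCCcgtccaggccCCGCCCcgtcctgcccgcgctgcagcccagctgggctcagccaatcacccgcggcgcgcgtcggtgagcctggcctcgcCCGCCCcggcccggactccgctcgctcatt
Slc25a20 (chr9:108661886-108662185, + strand): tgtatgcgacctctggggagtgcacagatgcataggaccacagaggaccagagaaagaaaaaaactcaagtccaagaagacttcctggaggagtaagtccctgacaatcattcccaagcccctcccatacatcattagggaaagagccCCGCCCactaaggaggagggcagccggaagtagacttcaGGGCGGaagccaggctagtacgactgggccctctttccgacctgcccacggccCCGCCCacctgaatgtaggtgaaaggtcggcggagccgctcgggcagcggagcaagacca
Cpt2 (chr4:107923540-107923839, - strand): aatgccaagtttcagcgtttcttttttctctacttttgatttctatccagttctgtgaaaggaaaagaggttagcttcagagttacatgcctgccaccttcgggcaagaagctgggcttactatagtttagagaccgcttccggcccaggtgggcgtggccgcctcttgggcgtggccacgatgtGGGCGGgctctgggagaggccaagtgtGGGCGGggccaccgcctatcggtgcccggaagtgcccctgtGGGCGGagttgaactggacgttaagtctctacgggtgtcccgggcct
Acads (chr5:115119297-115119596, - strand): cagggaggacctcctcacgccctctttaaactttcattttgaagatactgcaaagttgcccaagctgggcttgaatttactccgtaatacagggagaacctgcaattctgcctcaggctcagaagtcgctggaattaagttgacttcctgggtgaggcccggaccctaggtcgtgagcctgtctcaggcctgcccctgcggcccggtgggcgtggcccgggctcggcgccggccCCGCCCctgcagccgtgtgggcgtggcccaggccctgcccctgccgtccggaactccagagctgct
The half-site occurred in the window of Cpt1a and in none of the other 3 shown, and in 3 of the 9 members with a window (also Acadm and Acadvl), against 16.3% of all 32851 windows. The GC box occurred 3 times each in Cpt1a, Slc25a20 and Cpt2, 1 time in Acads, and in 7 of the 9 members, against 35.7% of all windows. The windows of the 9 members held 50.7 to 70.3% G and C, against a median of 52.7% over all windows. The part of this content in the GC box count was not tested. A direct repeat of the half-site with 1 base between the copies was in 0 of the 9 windows and in 0.0396% of all. These matches are descriptions of letters, not of bound sites.

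In the carnitine shuttle, Cpt1a was lower in both kinds of KO culture and higher in both kinds of TAM, and in each of these 4 comparisons its difference was the largest of the 10 genes. Its log2 intensity was 8.99, 9.01 and 8.44 on KO TAM arrays 1, 2 and 3, 7.62, 7.54 and 7.55 on KO MΦ arrays, 9.54, 10.07 and 9.59 on WT TAM arrays, and 9.13, 9.18 and 9.09 on WT MΦ arrays. WT TAMs were highest, then WT MΦs, KO TAMs and KO MΦs, and no neighbours in that order overlapped. KO TAM 3 was the lowest of the KO TAMs, and WT TAM 2 was the highest array of all.

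In KO MΦs, Cpt1a fell to 33.9% of its intensity in WT MΦs, a log2 difference of -1.56 ± 0.16 (SE, n = 3 each; limma adjusted p = 0.000234). In KO TAMs it fell to 52.8% of its intensity in WT TAMs, a difference of -0.92 ± 0.16 (limma adjusted p = 0.00325). In a limma fit of the TAM arrays alone that adjusted p was 0.0598. KO TAMs had 2.37-fold more Cpt1a signal than KO MΦs, a difference of 1.24 ± 0.16 (limma adjusted p = 0.00113). WT TAMs had 1.52-fold more than WT MΦs, a difference of 0.6 ± 0.16 (limma adjusted p = 0.0307). This last call was lost on leaving out WT TAM 2 (adjusted p = 0.0865 by limma), WT MΦ 1 (0.09), WT MΦ 2 (0.0732) or WT MΦ 3 (0.101). The WT difference was 0.44 without WT TAM 2, and 0.6, 0.63 and 0.58 without WT MΦ 1, 2 and 3. The co-culture difference was 0.64 ± 0.23 larger in KO cells than in WT cells, with an unadjusted limma p of 0.0159 and an adjusted p of 0.363, so a difference between genotypes was not shown.

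The stromal markers ordered the 4 groups as Cpt1a did. Their mean log2 level was 6.92, 6.63 and 5.78 on KO TAM arrays 1, 2 and 3, 5.5, 5.47 and 5.44 on KO MΦ arrays, 7.33, 8.44 and 7.46 on WT TAM arrays, and 7.06, 7.07 and 6.94 on WT MΦ arrays. Within the TAM groups, WT TAM 2 was highest and KO TAM 3 lowest both in this mean and in Cpt1a. In a limma fit with the stromal mean as a covariate, chosen after seeing the data, the Cpt1a difference was -0.78 in KO MΦs against WT MΦs (adjusted p = 0.0279) and 0.75 in KO TAMs against KO MΦs (adjusted p = 0.00777). In that fit it was -0.27 in KO TAMs against WT TAMs (adjusted p = 0.318) and 0.24 in WT TAMs against WT MΦs (adjusted p = 0.178). The mean of the 8 neutrophil markers ordered the groups in the same way, at 4.12 to 4.71 on KO TAM arrays, 4.11 to 4.17 on KO MΦ arrays, 4.64 to 4.75 on WT TAM arrays and 4.53 to 4.58 on WT MΦ arrays. In that list Mmp8 read 5.26 to 10.05, 4.91 to 5.4, 8.56 to 10.29 and 8.48 to 8.72 in these groups and was called lower in KO MΦs than in WT MΦs, while the other 7 markers lay between 2.49 and 5.5 on all 12 arrays. The part of the neutrophil markers in the Cpt1a result was not tested. Whether the stromal transcripts came from other cells or from the macrophages was not tested.

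**Figure D2:**
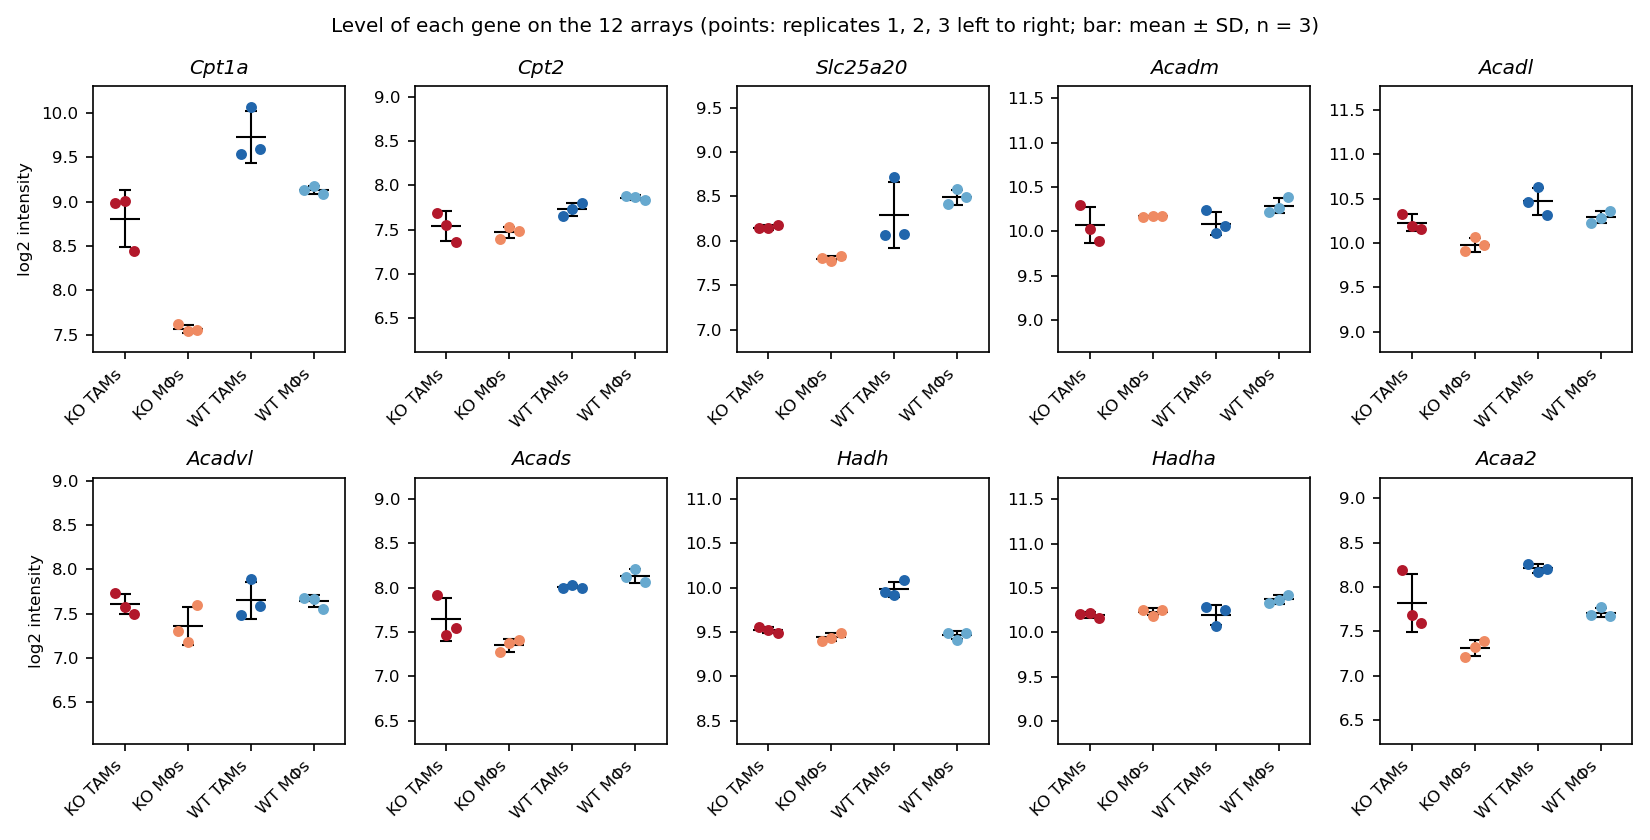
Log2 intensity (vertical axis, one scale span for all panels, different starting levels) of each of the 10 genes on KO TAM, KO MΦ, WT TAM and WT MΦ arrays; points are arrays 1, 2 and 3 from left to right, and bars are the mean ± SD (n = 3). Cpt1a spans 2.16 log2 units between the highest and lowest group means, against 0.17 for Hadha.

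Slc25a20, the carnitine-acylcarnitine carrier, read 8.14, 8.14 and 8.18 on KO TAM arrays, 7.81, 7.77 and 7.83 on KO MΦ arrays, 8.07, 8.72 and 8.08 on WT TAM arrays, and 8.41, 8.58 and 8.49 on WT MΦ arrays. KO MΦs were below all 9 other arrays, and WT TAM 2 stood well above the other WT TAMs. Slc25a20 fell in KO MΦs to 62% of its WT MΦ intensity, a difference of -0.69 ± 0.14 (limma adjusted p = 0.0101). Between KO TAMs and WT TAMs the difference was -0.14 ± 0.14 (limma adjusted p = 0.629; 95% interval -0.45 to 0.18), and the groups overlapped. KO TAMs were above KO MΦs without overlap, by 0.35 ± 0.14, which limma did not call (adjusted p = 0.197). WT TAMs differed from WT MΦs by -0.2 ± 0.14 (limma adjusted p = 0.459). Without WT TAM 2 that difference was -0.42 and was called (limma adjusted p = 0.00718). Without WT TAM 2 the co-culture difference was also larger in KO than in WT cells, by 0.77 (limma adjusted p = 0.0097), against 0.55 ± 0.2 with all arrays (limma adjusted p = 0.389).

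Cpt2, the inner membrane transferase, read 7.69, 7.55 and 7.36 on KO TAM arrays, 7.4, 7.53 and 7.48 on KO MΦ arrays, 7.65, 7.73 and 7.8 on WT TAM arrays, and 7.88, 7.87 and 7.83 on WT MΦ arrays. The KO MΦ arrays all lay below the WT MΦ arrays, whereas KO TAMs overlapped WT TAMs. Cpt2 fell in KO MΦs by 0.39 ± 0.09 on the log2 scale, to 76.4% of its WT MΦ intensity (limma adjusted p = 0.0193). That call was lost on leaving out KO MΦ 1 (limma adjusted p = 0.0773), KO MΦ 3 (0.0583), WT MΦ 1 (0.0702), WT MΦ 2 (0.0643) or WT MΦ 3 (0.055). Leaving out any 1 of the 6 arrays, the difference stayed between -0.42 and -0.36. Calls over all genes then fell from 2512 to between 1403 and 1503. The other Cpt2 differences were -0.19 ± 0.09 in KO TAMs against WT TAMs, 0.06 ± 0.09 in KO TAMs against KO MΦs and -0.13 ± 0.09 in WT TAMs against WT MΦs, and limma called none (lowest adjusted p = 0.224). With the stromal mean as a covariate, Slc25a20 and Cpt2 in KO MΦs against WT MΦs were at -0.24 and -0.16 (limma adjusted p = 0.673 and 0.677).

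The acyl-CoA dehydrogenases start each round of beta-oxidation, and limma called 1 of the 4 in the fit of all arrays. Acads, which acts on short chains, read 7.92, 7.47 and 7.54 on KO TAM arrays, 7.27, 7.37 and 7.41 on KO MΦ arrays, 8, 8.03 and 7.99 on WT TAM arrays, and 8.12, 8.21 and 8.06 on WT MΦ arrays. All KO arrays lay below all WT arrays, and no neighbours in the order WT MΦs, WT TAMs, KO TAMs, KO MΦs overlapped. Acads fell in KO MΦs to 58.1% of its WT MΦ intensity, a difference of -0.78 ± 0.11 (limma adjusted p = 0.00125), and this call was kept on leaving out any 1 of the 6 arrays compared. With the stromal mean as a covariate it was -0.57 (limma adjusted p = 0.186). In KO TAMs the difference from WT TAMs was -0.36 ± 0.11 (limma adjusted p = 0.0537). Without KO TAM 1, the highest KO array for this gene, it was -0.5 and was called (limma adjusted p = 0.00177). The co-culture differences, 0.3 ± 0.11 in KO cells and -0.12 ± 0.11 in WT cells, were not called by limma (adjusted p = 0.154 and 0.582), and their difference of 0.42 had an adjusted p of 0.399.

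Acadl, the long-chain dehydrogenase, ranged from 10.16 to 10.33 in KO TAMs, 9.91 to 10.07 in KO MΦs, 10.32 to 10.63 in WT TAMs and 10.23 to 10.36 in WT MΦs. KO MΦs were below the other 3 groups without overlap. The difference from WT MΦs, -0.31 ± 0.1, was close to the threshold and not called (limma adjusted p = 0.0614); it was called in the fit of the MΦ arrays alone (limma adjusted p = 0.0223). Acadvl, the very-long-chain dehydrogenase of the inner membrane, ranged from 7.5 to 7.73 in KO TAMs, 7.18 to 7.6 in KO MΦs, 7.48 to 7.89 in WT TAMs and 7.55 to 7.68 in WT MΦs. All its groups overlapped their neighbours in level, and limma called no difference (lowest adjusted p = 0.206). Acadm, for medium chains, ranged from 9.89 to 10.3 in KO TAMs, 10.16 to 10.18 in KO MΦs, 9.98 to 10.24 in WT TAMs and 10.22 to 10.39 in WT MΦs. KO MΦs lay just below WT MΦs, by -0.12 ± 0.11 (limma adjusted p = 0.541), with a 95% interval of -0.36 to 0.11.

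Among the later steps, Hadh, the medium- and short-chain 3-hydroxyacyl-CoA dehydrogenase, was higher in WT TAMs than in any other group. It read 9.55, 9.52 and 9.49 on KO TAM arrays, 9.4, 9.43 and 9.49 on KO MΦ arrays, 9.95, 9.91 and 10.08 on WT TAM arrays, and 9.49, 9.41 and 9.49 on WT MΦ arrays. The lowest WT TAM array was above all 9 others, and the other 3 groups lay within 9.4 to 9.55.

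WT TAMs had 1.43-fold more Hadh signal than WT MΦs, a difference of 0.52 ± 0.08 (limma adjusted p = 0.00113). In KO TAMs Hadh fell to 72.6% of its WT TAM intensity, a difference of -0.46 ± 0.08 (limma adjusted p = 0.00234; 0.0509 in the fit of the TAM arrays alone). KO TAMs differed from KO MΦs by 0.08 ± 0.08 (limma adjusted p = 0.656; 95% interval -0.09 to 0.24), and KO MΦs from WT MΦs by -0.02 ± 0.08 (limma adjusted p = 0.917; 95% interval -0.18 to 0.15). The co-culture difference in KO cells minus that in WT cells was -0.44 ± 0.11, the smallest unadjusted p among the 10 genes for this contrast (0.00142), with a limma adjusted p of 0.149. With limma array weights it was called, at -0.46 (adjusted p = 0.0231). With the stromal mean as a covariate the WT co-culture difference was 0.53 (limma adjusted p = 0.00861), and the TAM genotype difference was -0.49 (limma adjusted p = 0.0705).

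Hadha, the alpha subunit of the trifunctional protein that acts on long chains, ranged from 10.16 to 10.22 in KO TAMs, 10.18 to 10.25 in KO MΦs, 10.07 to 10.28 in WT TAMs and 10.33 to 10.42 in WT MΦs. WT MΦs were above the other 3 groups without overlap. Limma called none of its differences, of which the largest was -0.17 ± 0.08 in WT TAMs against WT MΦs (adjusted p = 0.226). Its partner, the beta subunit gene Hadhb, was also called in none of the comparisons.

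Acaa2, the mitochondrial thiolase that releases acetyl-CoA, was higher after co-culture in both genotypes. It read 8.19, 7.68 and 7.59 on KO TAM arrays, 7.21, 7.32 and 7.39 on KO MΦ arrays, 8.26, 8.17 and 8.2 on WT TAM arrays, and 7.68, 7.77 and 7.67 on WT MΦ arrays. WT TAMs lay above WT MΦs and KO TAMs above KO MΦs without overlap, and KO TAM 1 reached the WT TAM range. The difference was 0.51 ± 0.13 in KO TAMs against KO MΦs (limma adjusted p = 0.0411), and it was lost without KO TAM 1 (adjusted p = 0.0526), KO MΦ 1 (0.141), KO MΦ 2 (0.109) or KO MΦ 3 (0.0871). The difference was 0.33 without KO TAM 1, and 0.46, 0.52 and 0.55 without KO MΦ 1, 2 and 3. The call was also lost in the limma fit of the KO arrays alone (adjusted p = 0.157). The difference was 0.5 ± 0.13 in WT TAMs against WT MΦs (limma adjusted p = 0.0294). Its call was lost without WT TAM 1 (adjusted p = 0.0904), WT TAM 3 (0.07), WT MΦ 1 (0.0931), WT MΦ 2 (0.0642) or WT MΦ 3 (0.0986). Leaving out any 1 of the 6 arrays, it stayed between 0.48 and 0.53. With the stromal mean as a covariate the KO and WT differences were 0.34 and 0.38 (limma adjusted p = 0.448 and 0.228).

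In the fit of all arrays Acaa2 was not called between genotypes. KO MΦs were below WT MΦs without overlap, by -0.4 ± 0.13 (limma adjusted p = 0.0783). Limma called this MΦ difference with the MΦ arrays alone (adjusted p = 0.00807) and with array weights (0.00466). It was also called with only genes above the median level (0.0464) and without both WT TAM 2 and KO TAM 1 (0.00365). It was not called without any 1 MΦ array (lowest limma adjusted p = 0.121) or with the stromal covariate (-0.12, adjusted p = 0.863). Quantile normalization, median centring and the replicate block left it uncalled. KO TAMs differed from WT TAMs by -0.39 ± 0.13 (limma adjusted p = 0.0816). Without KO TAM 1 the TAM difference was -0.58 and was called (limma adjusted p = 0.000885).

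Single arrays bore on the TAM groups. KO TAM 1 was the highest KO TAM array for 7 of the 10 genes and KO TAM 3 the lowest for 8. For Acads and Acaa2, KO TAM 1 lay 0.28 and 0.37 above its group mean. KO TAM 1 also had the lowest mean of the 11 mitochondrial content genes measured, 9.25, against 9.48 and 9.57 on KO TAM 2 and 3. WT TAM 2 lay 0.34 and 0.43 above its group mean in Cpt1a and Slc25a20. Array weights were lowest for KO TAM 1 (0.27) and WT TAM 2 (0.33). The part of these arrays' quality in the results was not tested.

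**Figure D3:**
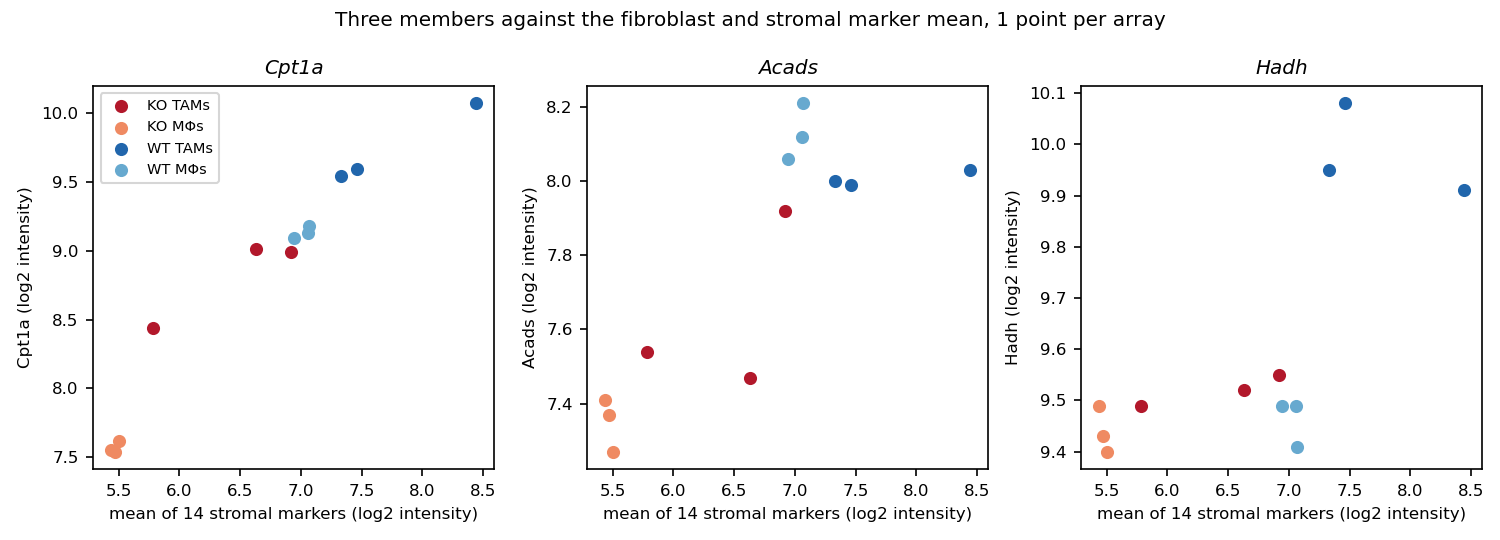
Log2 intensity of Cpt1a, Acads and Hadh (vertical axes) against the mean log2 intensity of the 14 fibroblast and stromal markers (horizontal axes), with 1 point per array coloured by group. Cpt1a rises with the marker mean from KO MΦ arrays at 7.54 to 7.62 up to WT TAM 2 at 10.07, whereas the 3 WT TAM arrays stand apart from the rest in Hadh at 9.91 or above.

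In the neighbouring gene lists, the calls described next rest on the fit of all 12 arrays. In limma fits of the compared arrays alone, called genes of these lists kept their call in 9 of 9 cases for KO MΦs against WT MΦs, 1 of 11 (Aldh9a1) for KO TAMs against WT TAMs, 2 of 8 (Acad10 and Plin2) for KO TAMs against KO MΦs and 14 of 17 (not Pcca, Ehhadh and Phb2) for WT TAMs against WT MΦs. With the stromal covariate 2 of 9 (Cs and Tomm40), 2 of 11 (Cs and Tomm40), 0 of 8 and 4 of 17 (Hsd17b10, Aldh9a1, Acox3 and Ppargc1b) kept it, in the same order of comparisons. Over all 22180 genes, the fit of all arrays called 2512, 2710, 1449 and 2561 in that order. Fits of the compared arrays alone called 4716, 638, 505 and 2526, and the fit with the stromal covariate 324, 629, 237 and 1265.

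Of 11 further mitochondrial beta-oxidation genes measured, limma called 0 in KO MΦs against WT MΦs (0 also at an unadjusted p under 0.05). Without overlap 0 of the 11 lay lower and 2 higher there, against 17.7% lower and 20.8% higher of all genes. Their median difference was -0.04. In KO TAMs against WT TAMs limma called 0 (1 at an unadjusted p under 0.05). In WT TAMs 3 rose over WT MΦs: Hsd17b10, a 3-hydroxyacyl-CoA dehydrogenase (0.61, limma adjusted p = 0.00288), Acad10, an acyl-CoA dehydrogenase family member (0.5, adjusted p = 0.012), and Ech1, a dienoyl-CoA isomerase (0.33, adjusted p = 0.0102). In KO TAMs 1 rose over KO MΦs, again Acad10 (0.49, limma adjusted p = 0.0211). The Acad10 calls were lost without WT MΦ 1 in WT cells (adjusted p = 0.0607), and without KO TAM 1 (0.058), KO MΦ 1 (0.0865) or KO MΦ 3 (0.0786) in KO cells.

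Electrons from the dehydrogenases pass to the electron transfer flavoprotein. Of its 3 genes, Etfb, the beta subunit, fell in KO TAMs against WT TAMs by 0.43 (limma adjusted p = 0.0242), and Etfdh, the ubiquinone oxidoreductase, rose in KO TAMs over KO MΦs by 0.45 (adjusted p = 0.0309). The Etfb call was lost without KO TAM 1, KO TAM 3, WT TAM 1 or WT TAM 2 (highest adjusted p = 0.0811), and the Etfdh call without any 1 array other than KO TAM 3 (highest adjusted p = 0.117). In KO MΦs against WT MΦs all 3 lay lower without overlap, against 17.7% of all genes. There limma called 0 of the 3 (3 at an unadjusted p under 0.05).

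Of 9 carnitine handling genes measured, 3 rose and 1 fell in WT TAMs against WT MΦs: Aldh9a1 (0.7, limma adjusted p = 0.00221) and Tmlhe (0.63, adjusted p = 0.016), enzymes of carnitine synthesis, and the transporter Slc22a4 (0.67, adjusted p = 0.0168) rose, and Slc22a21, a carnitine transporter, fell by 0.58 (adjusted p = 0.00931). In KO TAMs against KO MΦs 1 of the 9, Tmlhe, rose (0.56, limma adjusted p = 0.0419; 0.36 without KO TAM 1), and the median difference was 0.07. Aldh9a1 fell in KO TAMs against WT TAMs by 0.79 (limma adjusted p = 0.00116). In KO MΦs against WT MΦs limma called 0 of the 9 (2 at an unadjusted p under 0.05). The WT co-culture calls of Tmlhe and Slc22a4 and the KO call of Tmlhe were lost on leaving out 1 array: for Tmlhe WT TAM 1, WT MΦ 1 or WT MΦ 2 (highest adjusted p = 0.0686), for Slc22a4 WT MΦ 1 or WT MΦ 2 (0.0736), and for Tmlhe in KO cells any array other than KO TAM 3 (0.135).

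Peroxisomes shorten very long chains by their own enzymes. Of 13 such genes measured, 2 rose in WT TAMs against WT MΦs and 2 in KO TAMs against KO MΦs. Acox3, a branched-chain acyl-CoA oxidase, rose in both, by 0.99 in KO cells (limma adjusted p = 0.0119; 0.0507 without KO MΦ 2) and by 1.18 in WT cells (adjusted p = 0.00225). Phyh, which starts phytanic acid breakdown, rose in KO TAMs over KO MΦs by 0.4 (limma adjusted p = 0.0173), a call lost without KO MΦ 1, KO MΦ 2 or KO MΦ 3 (highest adjusted p = 0.0747). Ehhadh, the bifunctional enzyme, fell in KO TAMs against WT TAMs by 0.62 (limma adjusted p = 0.035; up to 0.12 without KO TAM 1, KO TAM 2, WT TAM 1 or WT TAM 2) and rose in WT TAMs over WT MΦs by 0.59 (adjusted p = 0.0471; up to 0.181 without WT TAM 1, WT TAM 2, WT MΦ 2 or WT MΦ 3).

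Of the 11 branched-chain and propionyl-CoA genes, Pcca, a propionyl-CoA carboxylase subunit, rose in KO MΦs over WT MΦs by 0.43 (limma adjusted p = 0.00433) and in WT TAMs over WT MΦs by 0.26 (adjusted p = 0.0491, lost on leaving out any 1 of the 6 arrays, up to 0.156). Acadsb, the short/branched-chain dehydrogenase, was higher in KO TAMs than in WT TAMs by 0.32 (limma adjusted p = 0.0255; up to 0.0811 without KO TAM 1, KO TAM 2, WT TAM 2 or WT TAM 3) and lower in WT TAMs than in WT MΦs by 0.36 (adjusted p = 0.0152; 0.0524 without WT TAM 3 and 0.062 without WT MΦ 3). Acat1, of 4 ketone body genes measured, fell in KO MΦs by 0.33 (limma adjusted p = 0.028, lost on leaving out any 1 of the 6 arrays, up to 0.102) and in WT TAMs against WT MΦs by 0.42 (adjusted p = 0.0073). Leaving out 1 MΦ array, its difference in KO MΦs was -0.35 to -0.3.

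Of 17 regulators, Rxra, the partner receptor of the PPARs, was higher in KO TAMs than in WT TAMs by 0.39 (limma adjusted p = 0.0139; 0.0558 without WT TAM 3) and in KO MΦs than in WT MΦs by 0.44 (adjusted p = 0.00774). It was also higher in KO TAMs than in KO MΦs by 0.37 (limma adjusted p = 0.0269; up to 0.11 without KO TAM 1, KO TAM 2, KO MΦ 1 or KO MΦ 2) and in WT TAMs than in WT MΦs by 0.43 (adjusted p = 0.00836). Pparg, the PPAR of alternatively activated macrophages, was higher in KO MΦs than in WT MΦs by 0.61 (limma adjusted p = 0.0211, lost on leaving out any 1 of the 6 arrays, up to 0.0722). Its difference was then 0.59 to 0.63. Ppargc1b, which encodes the coactivator PGC-1β, was lower in WT TAMs than in WT MΦs by 0.47 (limma adjusted p = 0.0118).

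Among 7 other known PPAR targets measured, the lipid droplet gene Plin2 was higher in KO TAMs than in KO MΦs by 1.23 (limma adjusted p = 0.0125; 0.0517 without KO MΦ 2) and in WT TAMs than in WT MΦs by 1.08 (adjusted p = 0.014; 0.0525 without WT MΦ 1). Fabp4, a fatty acid binding protein, was higher by 4.3 in KO cells (limma adjusted p = 0.013; 0.0585 without KO MΦ 1) and by 3.97 in WT cells (adjusted p = 0.0109) after co-culture. Fabp4 read 11.63, 8.09 and 7.29 on KO TAM arrays 1, 2 and 3, and the difference from KO MΦs was 2.98 without KO TAM 1 and 5.15 without KO TAM 3, both called. Without WT TAM 2 the Plin2 difference between WT TAMs and WT MΦs was 0.7, also called. Plin2 fell in KO MΦs against WT MΦs by 0.83 (limma adjusted p = 0.0479, lost on leaving out any 1 of the 6 arrays, up to 0.126). Its difference was then -0.86 to -0.81. Pdk4, a kinase that restrains pyruvate oxidation, fell in KO TAMs against WT TAMs by 1.94 (limma adjusted p = 0.0234). Its adjusted p was 0.0592 without KO TAM 2 and 0.0907 without KO TAM 3, and it was called at -1.28 without WT TAM 2. With the stromal covariate Plin2 was at 0.27 and Pdk4 at 0.17 in these genotype comparisons.

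Of 11 genes of general mitochondrial content measured, limma called 4 lower and 0 higher in KO MΦs than in WT MΦs, and 7 did not pass: Tomm40, an import pore (-0.55, adjusted p = 0.00484), Tufm, a translation factor (-0.51, adjusted p = 0.00425, but -0.23 and 0.101 with the mean of its probe sets), Cs, citrate synthase (-0.5, adjusted p = 0.00241), and Phb2, a prohibitin (-0.43, adjusted p = 0.0172). Without overlap 9 of the 11 lay lower and 1 higher in KO MΦs, against 17.7% lower and 20.8% higher of all genes. Their median difference was -0.21. In KO TAMs against WT TAMs 5 were called lower, the same 4 and the outer membrane channel Vdac1 (-0.28, limma adjusted p = 0.0288). There Tomm40 was at -0.45 and Cs at -0.38. After co-culture 0 of the 11 were called in KO cells (3 at an unadjusted p under 0.05), and Phb2 was called lower in WT cells (-0.36, limma adjusted p = 0.0387). The Phb2 call was lost in MΦs without KO MΦ 2, KO MΦ 3, WT MΦ 1 or WT MΦ 2 (adjusted p up to 0.0769) and in TAMs without KO TAM 1, KO TAM 2, WT TAM 1 or WT TAM 3 (up to 0.128). In WT co-culture it was lost without any 1 array other than WT TAM 3 (limma adjusted p up to 0.145). In TAMs the Vdac1 call was lost without KO TAM 1, KO TAM 2, WT TAM 1 or WT TAM 3 (limma adjusted p up to 0.0865), and the Tomm40 call without WT TAM 3 (0.0543). Summed intensities of the 11 were 8830 to 11759 on KO TAM arrays, 10674 to 10785 on KO MΦ arrays, 11469 to 12272 on WT TAM arrays and 12109 to 12443 on WT MΦ arrays; the part of mitochondrial content in the 10 genes' differences was not tested.

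**Figure D4:**
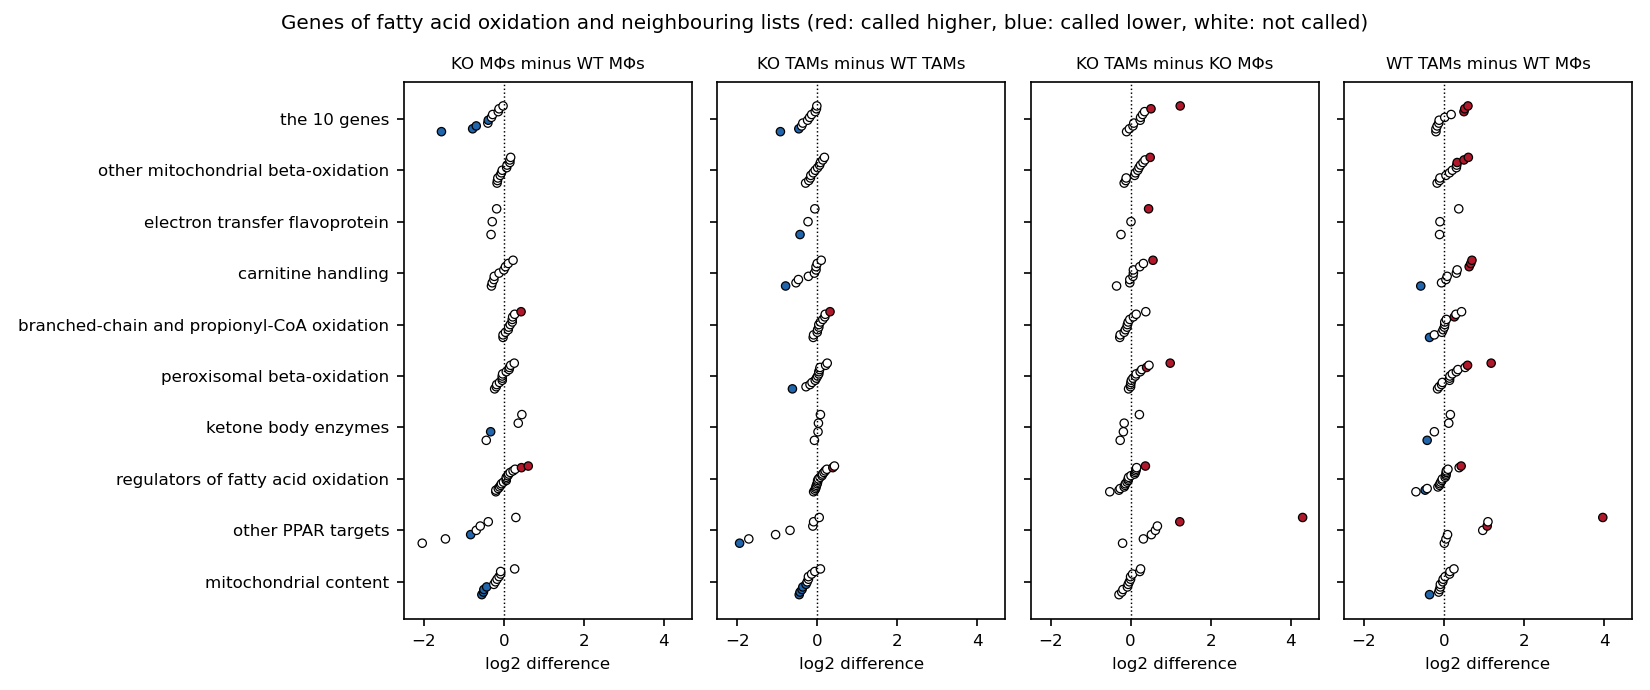
Log2 difference (horizontal axis) of every measured gene of the 10 genes and of 9 neighbouring lists (rows) in the 4 comparisons (panels); points called higher are red, points called lower blue and the others white. In KO MΦs minus WT MΦs the called points are 4 of the 10 genes, Pcca, Acat1, Rxra, Pparg, Plin2 and 4 of the 11 mitochondrial content genes.

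The genes whose levels were most like Cpt1a over the 12 arrays, among 17721 genes searched, were Colec12 (Pearson r = 0.983), a scavenger receptor, Sparc (0.982) and Thbs1 (0.982), matricellular proteins, Timp1 (0.981), a metalloproteinase inhibitor, and Akr1b8 (0.981), an aldo-keto reductase. The genes most like the mean of the 10 standardised members were Emp2 (0.991), Ccr3 (0.981), S100a11-ps (0.979), Esyt1 (0.976) and S100a6 (0.976). The arrays fall into 4 groups and share their processing, so these values rank likeness and carry no test. Sparc is also 1 of the 14 stromal markers. Colec12, like Cpt1a, was called higher in KO TAMs than in KO MΦs by 1.17 (limma adjusted p = 0.00402) and in WT TAMs than in WT MΦs by 0.8 (adjusted p = 0.0164).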

How the data were processed

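RNA of 12 mouse macrophage samples was labelled with biotin by a whole-transcript kit for single-colour arrays, per the labels' protocols. The authors deposited 1 table of linear intensity values, made with RMA (background correction, quantile normalization and probe set summary) per the submitters' processing notes, which also name limma and give no version. This removes shifts shared by most genes. The genome build was not given in the sources used here.

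Values were turned to log2 with a pseudocount of 0. Of 41345 probe sets, 23521 had 1 gene symbol, 1814 several and 16010 none; the last 2 kinds were left out. For the 1082 genes with several probe sets the one with the highest mean was kept, leaving 22180 genes, with no filter on level. By Entrez ID 23328 probe sets matched RefSeq, and 0 symbols changed. Array medians were 31.3 to 33.3; the number of arrays limits the precision.

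Differences were fitted with lmFit and eBayes of limma 3.58.1 in R 4.3.3 on 4 group means (8 residual degrees of freedom), and p-values were adjusted by Benjamini-Hochberg over 22180 genes; called means an adjusted p under 0.05, and SE is the fit's standard error. All adjusted p-values are from limma. The common spread can make p too small between TAM groups, whose arrays varied more, and too large between MΦ groups. Tested on simulated data for WT TAMs minus WT MΦs over 22180 genes, the fit called 44% of genes changed by 0.5 on the log2 scale, 90% at 1, 98% at 2 and 88% at -1. The simulation changed 50 genes per step, left 21980 unchanged and gave each gene 1 SD for all groups. The data had 2561 calls in this comparison and more spread in TAM arrays, so these shares do not measure the sensitivity reached here. Alternatives were the normalization, the fit, the filter, array weights, the replicate block and leaving out arrays, and 2 alternatives chosen after seeing the data (both WT TAM 2 and KO TAM 1 left out, and a stromal covariate).

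The 10 members and all gene lists were chosen with earlier results of these data known. Groups came from the titles. Named genes were the members, up to 4 called genes of each list per comparison with the largest differences, list genes needed for a role, and the 5 genes most like Cpt1a and the 5 most like the members' mean.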

Additional observations from a re-analysis of the deposited data

How the results depend on the processing

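Differences of the 10 genes were recomputed in 800 combinations of gene, comparison and alternative: 702 kept their direction and side of the threshold, 31 lost a call, 29 gained one and 38 changed sign, none of these a called difference. For called genes of the other lists and Cd36, 537 of 701 kept both, 162 lost the call and 2 changed sign. Counts of members called moved by over 1.5 times as follows; the cause was not tested. In KO TAMs minus KO MΦs, where the count was 2, it was 1 with only the groups compared, 1 with the replicate block and 1 with the stromal covariate. Over all 22180 genes these fits called 505, 1326 and 237, against 1449 in the main fit. In KO TAMs minus WT TAMs, where it was 2, it was 0 with only the groups compared, 4 with only genes above the median level, 4 with array weights, 4 without both WT TAM 2 and KO TAM 1, and 0 with the stromal covariate. Over all genes these fits called 638, 3050 (of 11090), 4725, 4480 and 629, against 2710 in the main fit. In WT TAMs minus WT MΦs it was 1 in place of 3, and in KO MΦs minus WT MΦs 1 in place of 4, with the stromal covariate. Over all genes that fit called 1265 in place of 2561 and 324 in place of 2512. In the interaction it was 3 with array weights and 2 without both arrays, in place of 0. Over all genes these fits called 761 and 1496, in place of 43. Leaving out 1 array gave 1 to 3 in WT TAMs minus WT MΦs, 1 to 2 in KO TAMs minus KO MΦs, 3 to 4 in KO MΦs minus WT MΦs, 2 to 4 in KO TAMs minus WT TAMs and 0 to 1 in the interaction. Over all genes it gave 1475 to 2671, 611 to 1659, 1403 to 1503, 1749 to 3710 and 14 to 444 calls, in the same order. The main fit gave 2561, 1449, 2512, 2710 and 43. A call lost on leaving out 1 array thus does not by itself mean a smaller difference. Signs changed for Acadvl in WT TAMs minus WT MΦs (-0.00076 after quantile normalization, -0.05 with array weights, -0.1 without both arrays, -0.17 with the stromal covariate), Acadvl in KO TAMs minus WT TAMs (0.00054, 0.0082 and 0.29 with array weights, without both arrays and with the covariate), Acaa2 in the interaction (-0.02 with median centring, -0.12 with array weights, -0.2 without both arrays, -0.04 with the covariate) and Acadm in the interaction (-0.06 without both arrays). Without both arrays and with the covariate, Cpt2 was at -0.01 and -0.08 in KO TAMs minus KO MΦs and Slc25a20 at 0.09 and 0.24 in KO TAMs minus WT TAMs. With the covariate alone Acadvl was at -0.0034 and Hadha at 0.04 in KO TAMs minus KO MΦs, Acadvl at 0.12 and Plin2 at 0.27 in KO MΦs minus WT MΦs, and Acadm at 0.05 and Pdk4 at 0.17 in KO TAMs minus WT TAMs. Leaving out 1 array, values spanned 0 for Acadvl (-0.1 to 0.1) in WT TAMs minus WT MΦs, Cpt2 (-0.01 to 0.15) in KO TAMs minus KO MΦs, Slc25a20 (-0.25 to 0.08), Acadm (-0.13 to 0.07), Acadvl (-0.13 to 0.07) and Hadha (-0.07 to 0.03) in KO TAMs minus WT TAMs, and Acadm (-0.0097 to 0.19), Acadl (-0.01 to 0.14) and Acaa2 (-0.18 to 0.12) in the interaction. Deviations of same-numbered arrays correlated at -0.06 to 0.27 over 18 pairs, 2 of them over 0.1, against -0.28 to 0.07 for other pairs. The 2 were WT TAM 1 with KO TAM 1 (0.27) and WT TAM 2 with KO TAM 2 (0.25), while WT TAM 3 with KO TAM 3 was at 0.03. The 4 of 12 arrays that correlated best with their own number were those of these 2 pairs. Whether the numbers pair TAM samples is not stated in the labels. With the replicate block limma called the same 2 of the 10 in KO TAMs minus WT TAMs.

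Precision was limited by 3 arrays a group and by the larger spread of TAM arrays. On simulated data 44% of genes changed by 0.5 on the log2 scale were called in WT TAMs minus WT MΦs. Few genes were changed there and all groups shared 1 SD per gene, so that share does not measure the precision of these data. Genotype and sex cannot be told apart for any gene, and neither can co-culture and time in culture, which the labels give for TAMs only. Array intensities of different probe sets were not compared.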
